A study of Mus musculus with 2 samples.

Results

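The genes described here encode amino acid transporters of 7 solute carrier (SLC) families: SLC1, SLC3, SLC6, SLC7, SLC36, SLC38 and SLC43. They were taken by gene name from the probe annotation of the arrays, leaving out Slc7a2 and Slc7a11, and each gene was read from its brightest probe. The name rule gave 60 genes with 77 probes, of 23712 gene names found in a RefSeq gene table, and 1 of the 60, Slc7a6os, is named for lying opposite Slc7a6 and is not a transporter. RNA came from mouse primary hepatocytes, the parenchymal cells of the liver taken into culture. One array held RNA from cells transfected with G0s2 siRNA and 1 held RNA from cells transfected with control siRNA. Both groups grew with 10% serum on 24-well plates, were transfected by lipofection with 50 pmol of siRNA, and were measured 24 hours later. The labels do not say whether an array's RNA came from 1 well or a pool. Mouse strain, age and sex and the siRNA sequences are not given in the sources used here. Each group has 1 array, so no difference below has a replicate check, no p-value was computed, and each value compares 2 arrays rather than 2 conditions.

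Amino acids cross membranes through carriers that differ in what drives them. Members of SLC1, SLC6 and SLC38 couple uptake to sodium and can concentrate their substrates, SLC36 proteins couple it to protons, and many SLC7 and SLC43 proteins exchange or equilibrate amino acids across the membrane. The SLC3 proteins are not carriers themselves but single-span subunits that bring SLC7 light chains to the cell surface. In liver these carriers supply alanine, glutamine and other amino acids for glucose and urea production, and some SLC38 and SLC36 proteins sit on lysosomes, where amino acids are reported to the growth kinase mTOR.

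G0s2, the gene targeted by the siRNA, had a signal of 103 on the G0s2 siRNA array and 383 on the control siRNA array. Signals are intensities from the scanner, and a level is the log2 signal relative to the 75th percentile of signals on the same array, which was 728 with G0s2 siRNA and 418 with control siRNA. On that scale G0s2 differed by -2.70 ± 0.21, where the error is the scanner's own and leaves out variation between cultures, extracts and labellings. All 10 hepatocyte markers examined, Alb and Hnf4a among them, were well above background on both arrays. Macrophage, endothelial and stellate markers were detected too, as 10 of 11, 6 of 9 and 5 of 9 genes with a measured difference. Bulk RNA cannot separate fewer cells of a type from less RNA per cell.

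The probes of the 4 genes past 2-fold, and that of Slc38a2, a chromosomal neighbour of Slc38a4, show what was read on the arrays. The first 30 of 60 bases are given as the scanner tables write them, with coordinates of the whole probe on mm9 from those tables; capitals in the Slc6a9 pair mark bases held by both probes, which share 51 bases and are therefore no independent readings. Exon and UTR annotation of that build was not used here.
Slc38a4, chr15:96825482-96825541, minus strand: ctaacctggaagtatccacttgtgtagtta
Slc38a7, chr8:98360074-98360133, minus strand: agcatccagacttgctgaattgttgttctc
Slc38a2, chr15:96518491-96518550, minus strand: aaggttccaaatgaatttcaggccaaattc
Slc6a9, probe A_55_P1973838, chr4:117541842-117541901, plus strand: gcccagtgtGTGCAGAACTAGGGTTTTAAA
Slc6a9, probe A_55_P2010788, chr4:117541851-117541910, plus strand: GTGCAGAACTAGGGTTTTAAAGTCCGTAGG
Slc1a2, chr2:102617752-102617811, plus strand: aagcaactctaatcagtgtgtctatgccgc

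Of the 60 genes, 33 were well above background on at least 1 array, 31 of them on both. Differences (G0s2 siRNA minus control siRNA) could be given for 32. At the rule of a 2-fold difference, 2 genes were higher with G0s2 siRNA, Slc38a4 and Slc38a7, and 2 were lower, Slc6a9 and Slc1a2. Among all 15011 named genes with a difference, 4.96% passed the rule upward with G0s2 siRNA and 5.6% downward, so 2 of 32 (6.25%) in each direction lies near the share among all genes. The median difference over the transporter genes was -0.08, against -0.04 over all named genes. Among the genes on both arrays, the median size of the difference was 0.35 for the transporters and 0.33 for all.

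Measured against the scanner's own error, 7 of the 31 genes on both arrays were higher by more than 2 errors and 6 were lower by as much. The shares among all named genes on both arrays were 17.3% and 21.3%. The 7 higher genes were Slc7a9, Slc43a3 and the SLC38 members Slc38a1, Slc38a2, Slc38a3, Slc38a4 and Slc38a7. The 6 lower genes were Slc1a2, Slc6a9, Slc7a3, Slc7a4, Slc38a6 and Slc43a2.

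**Figure D1:**
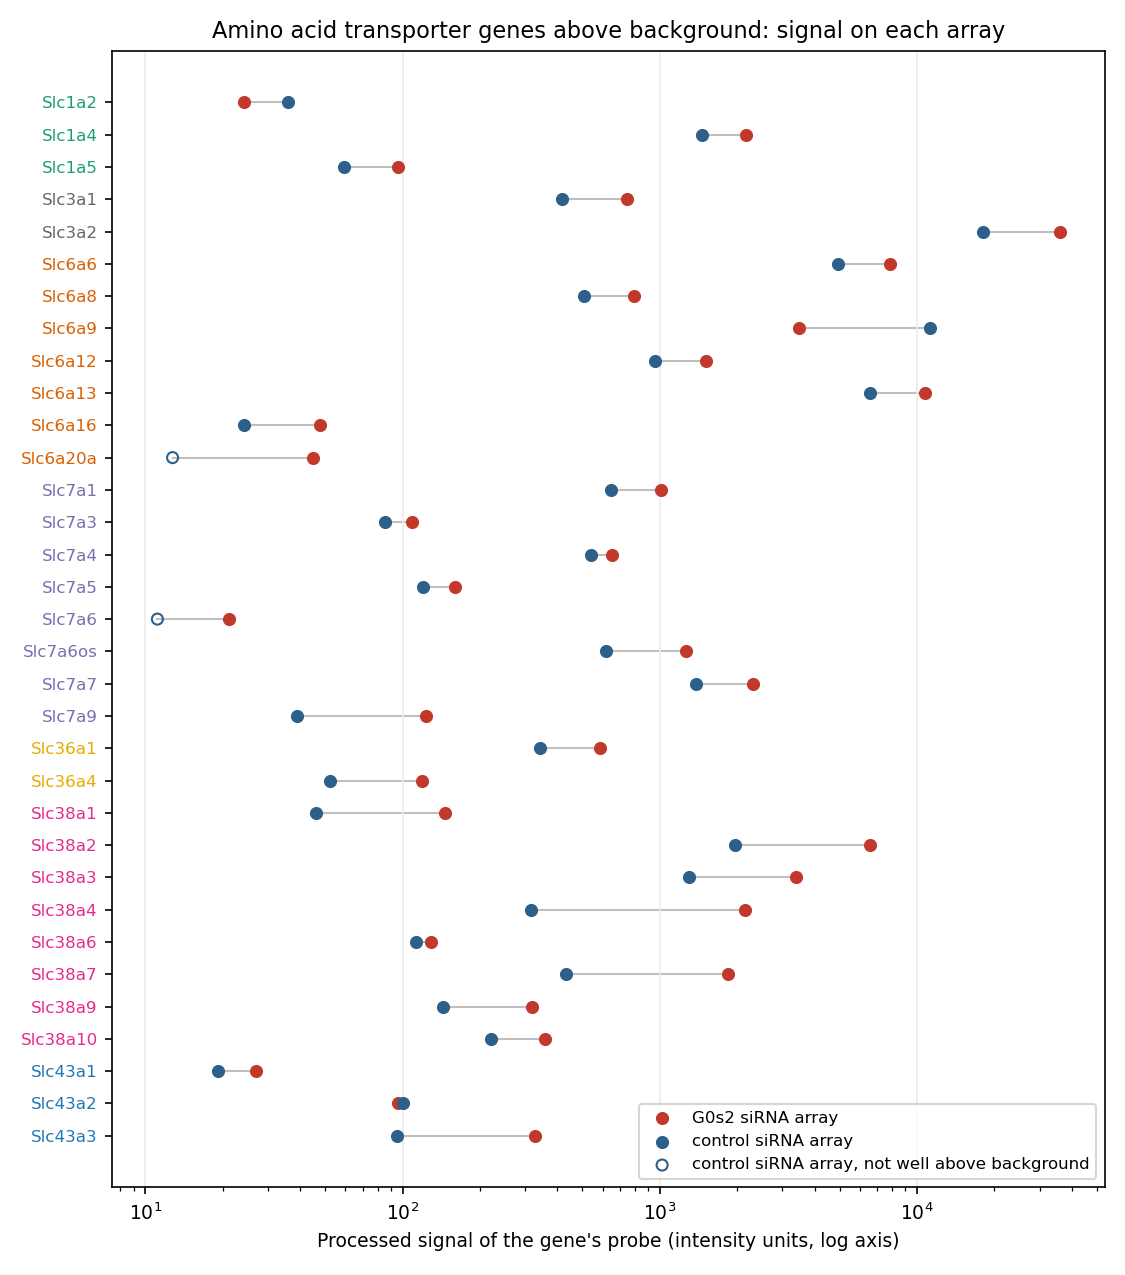
Processed signal (intensity units, log axis) of each of the 33 transporter genes above background, with 1 row per gene and names coloured by family. Filled points are the G0s2 siRNA array (red) and the control siRNA array (blue), and open points are not well above background; the red point lies to the right for 30 genes and to the left for Slc1a2, Slc6a9 and Slc43a2, against a 75th percentile of signal of 728 on the G0s2 siRNA array and 418 on the control siRNA array.

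The SLC38 family held both genes that were at least 2-fold higher. It encodes sodium-coupled neutral amino acid transporters, of which 8 of 11 were measured. Of these, 6 were positive and 2 negative, with a median difference of 0.73. Of all 15011 named genes with a difference, 6964 were positive, with a median of -0.04. The 6 positive SLC38 members were positive under each of the 10 other ways of processing that were tried. Centring on spike-in controls moved all genes up alike, and changes of filter or probe choice left genes with 1 usable probe unchanged. Not every setting could therefore have turned a positive member negative. No set test was run, so the family is described here and not called different from the rest.

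Slc38a4 encodes a system A transporter of hepatocytes that takes up alanine and other small neutral amino acids, and in the mouse it is an imprinted gene expressed from the paternal copy. Its signal was 2138 with G0s2 siRNA and 317 with control siRNA. The level was 1.56 with G0s2 siRNA and -0.40 with control siRNA, a difference of 1.96 ± 0.20, or 3.88-fold. It ranked 86 of the 15011 named genes, counted from the highest difference. Slc38a7 encodes a glutamine transporter of the lysosomal membrane. It had a signal of 1848 on the G0s2 siRNA array and 433 on the control siRNA array, and its difference was 1.29 ± 0.20, or 2.45-fold. Both genes were past 2-fold under all 10 other settings, at 1.80 and 1.25 with normexp background correction. Each rests on 1 probe, so settings that change only the filter or the probe choice gave the main value again.

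Slc38a2, Slc38a1 and Slc38a3 lay below the 2-fold rule. Slc38a2 encodes the widely expressed system A transporter whose expression adapts to amino acid supply. Its signal was 6540 with G0s2 siRNA and 1960 with control siRNA, a difference of 0.94 ± 0.20. Values of at least 1.00 were reached in 5 of 10 other settings, for example 1.09 with normexp. Slc38a1, a transporter of glutamine and other neutral amino acids, read 147 with G0s2 siRNA and 46.3 with control siRNA, a difference of 0.87 ± 0.23. That value was 0.31 with normexp, so it depends on how background was handled. Its other probes were not well above background on either array.

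Slc38a3 encodes the system N transporter through which hepatocytes take up and release glutamine, histidine and asparagine. It read 3379 with G0s2 siRNA and 1295 with control siRNA, a difference of 0.59 ± 0.20. Slc38a9 encodes a lysosomal transporter that acts as an arginine sensor for mTOR complex signalling. Its signals were 318 with G0s2 siRNA and 143 with control siRNA, with a difference of 0.35 ± 0.21, and another of its probes on both arrays gave 0.71. Slc38a6 was the lowest of the family at -0.60 ± 0.21, with signals of 129 with G0s2 siRNA and 113 with control siRNA. Slc38a10 differed by -0.10. Both turned positive when arrays were centred on spike-in controls.

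Slc38a1, Slc38a2 and Slc38a4 are direct neighbours on chromosome 15, with 0 other protein-coding genes between them in the RefSeq table of assembly GRCm38.p6. Their differences were 0.87, 0.94 and 1.96 in that order. Slc38a7 lies on chromosome 8 and Slc38a3 on chromosome 9. Further transporter genes also lie close together. Slc43a1 and Slc43a3, 1 gene apart on chromosome 2, differed by -0.31 and 0.99. Slc6a13 and Slc6a12, adjacent on chromosome 6, differed by -0.09 and -0.15.

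**Figure D2:**
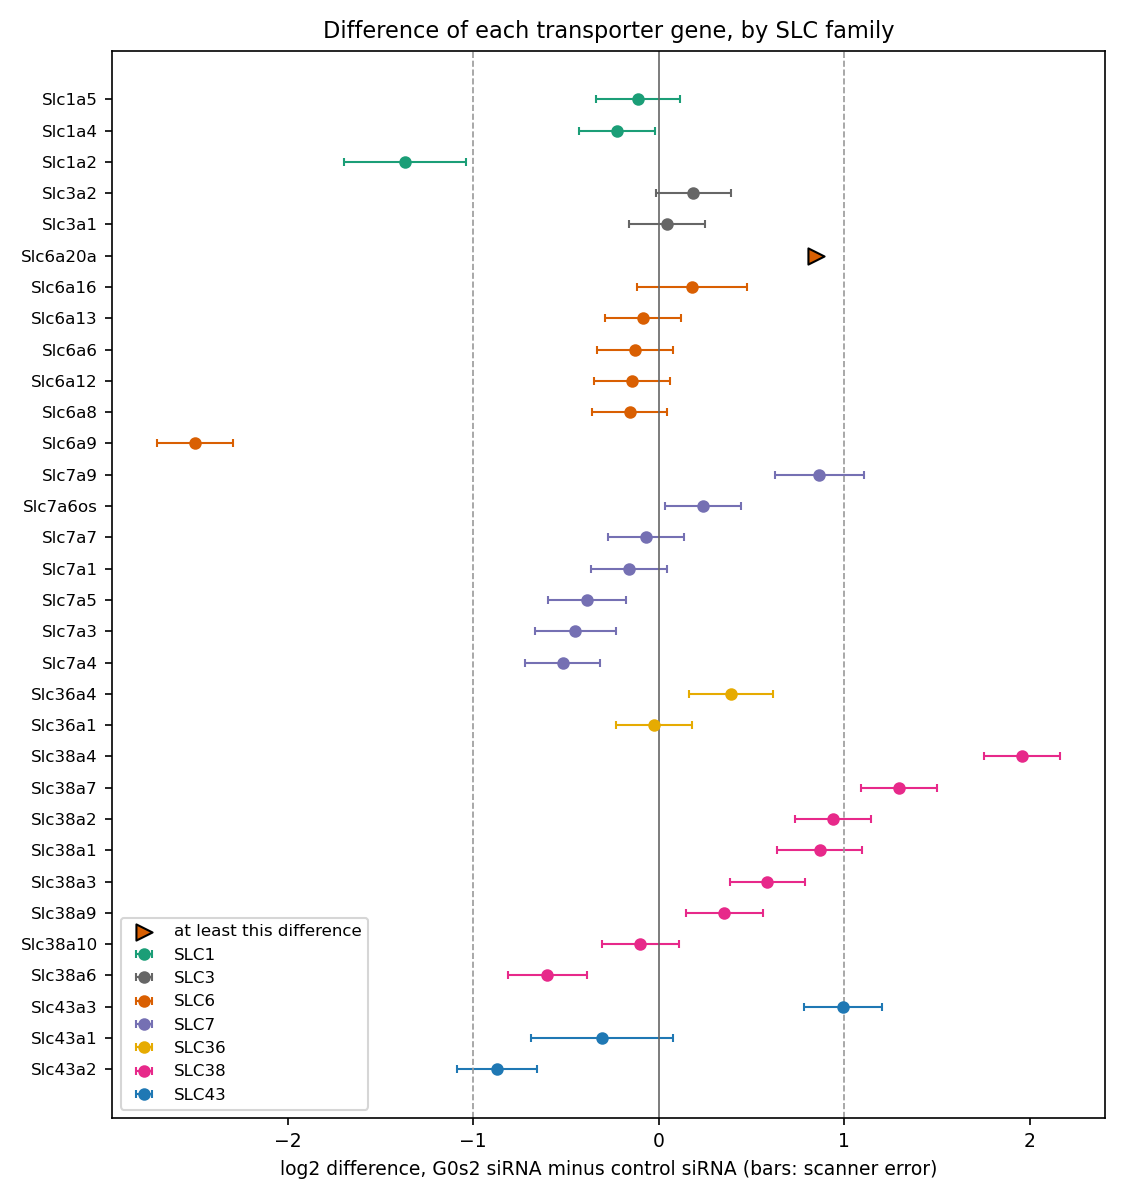
Differences on the log2 scale (horizontal axis, G0s2 siRNA minus control siRNA) of the 32 transporter genes with a value, sorted within family, with bars for the scanner error and dashed lines at 2-fold. Slc38a4 at 1.96 and Slc38a7 at 1.29 lie right of the upper line and Slc6a9 at -2.50 and Slc1a2 at -1.37 left of the lower line, and the triangle marks a lower bound for Slc6a20a; with spike-in centring every value but that of Slc6a9 was positive.

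The windows at the gene starts of Slc38a4 and Slc38a7, the 2 genes past 2-fold upward, and of Slc38a2, the neighbour of Slc38a4, are shown, 300 bases each and mostly upstream of the start, as RefSeq gives them for GRCm38.p6. Capitals mark GGGCGG or its reverse complement, the GC box motif, which the Slc38a7 window does not hold.
Slc38a2, chr15:96699679-96699978, minus strand: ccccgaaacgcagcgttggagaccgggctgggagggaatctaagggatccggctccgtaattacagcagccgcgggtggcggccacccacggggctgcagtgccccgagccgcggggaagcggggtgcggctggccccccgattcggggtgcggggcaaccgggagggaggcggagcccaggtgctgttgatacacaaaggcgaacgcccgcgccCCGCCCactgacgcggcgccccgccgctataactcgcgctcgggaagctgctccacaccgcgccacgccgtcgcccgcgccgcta
Slc38a7, chr8:95853442-95853741, minus strand: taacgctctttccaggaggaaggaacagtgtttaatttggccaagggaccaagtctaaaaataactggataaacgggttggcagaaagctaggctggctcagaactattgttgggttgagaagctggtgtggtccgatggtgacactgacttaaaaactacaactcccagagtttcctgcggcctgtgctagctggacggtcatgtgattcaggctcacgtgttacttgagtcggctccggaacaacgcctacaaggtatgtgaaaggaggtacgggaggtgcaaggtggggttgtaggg
Slc38a4, chr15:97055907-97056206, minus strand, the outermost of 3 starts: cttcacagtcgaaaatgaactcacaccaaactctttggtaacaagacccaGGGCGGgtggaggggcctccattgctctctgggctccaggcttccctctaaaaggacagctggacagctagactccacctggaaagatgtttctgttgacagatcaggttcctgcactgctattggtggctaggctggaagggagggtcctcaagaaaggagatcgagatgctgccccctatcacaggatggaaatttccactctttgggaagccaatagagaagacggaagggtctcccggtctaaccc
The 3 windows differ in base composition, with 41, 10 and 5 CpG pairs and a GC content of 73%, 50.3% and 53% for Slc38a2, Slc38a7 and Slc38a4. Promoter windows were found for 43 of the 60 genes, 63 windows in all. The motif TTGCATCA, searched on both strands as the core of the amino acid response element, was in 3 of these, 1 of Slc1a4 and 2 of Slc7a7, 4.76% of the members' windows, and in 0.895% of all 32851 windows. The 2 windows of Slc7a7 overlap and hold the same site, so the 3 windows are not 3 separate sites. TTGCATCA was in none of the windows of Slc38a2, Slc38a4, Slc38a7 or Slc6a9, which says only that these letters are not there. GGGCGG on either strand was in 55.6% of the members' windows and 35.7% of all windows. The share was 47.5% for members with a difference and 66.7% for those not above background. The members' windows also had a higher median GC content, 57.7% against 52.7% for all windows. The letters of TTGCATCA and GGGCGG cannot overlap.

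Most of SLC6 was not detected, and its detected members, apart from Slc6a9 and a bound for Slc6a20a, lay close to 0. The family holds sodium- and chloride-coupled transporters of neurotransmitters, osmolytes and amino acids. Of 19 genes, 12 were not above background on either array. Slc6a9 encodes the glycine transporter GlyT1. Its signal was 3467 with G0s2 siRNA and 11261 with control siRNA. The level was 2.25 with G0s2 siRNA and 4.75 with control siRNA, a difference of -2.50 ± 0.20, or 5.65-fold lower. The overlapping second probe gave 2915 with G0s2 siRNA and 9321 with control siRNA, a difference of -2.48. It ranked 43 of the 15011 named genes, counted from the lowest difference. Its value lay between -2.52 and -2.30 under the other settings apart from spike-in centring, which moves all genes up alike and gave -1.10.

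Of the remaining SLC6 genes on both arrays, all but the orphan member Slc6a16 encode carriers of osmolytes or creatine. Slc6a6, the taurine transporter, read 7848 with G0s2 siRNA and 4926 with control siRNA, a difference of -0.13 ± 0.20. Slc6a13, a transporter of GABA and taurine found in liver, read 10746 with G0s2 siRNA and 6559 with control siRNA, a difference of -0.09. Slc6a12, the betaine and GABA transporter, differed by -0.15, and Slc6a8, the creatine transporter, by -0.16. These 4 lay within 1 scanner error of 0, and Slc6a13 was positive under several settings, at 0.08 with normexp. Slc6a16 differed by 0.18 at signals of 47.7 with G0s2 siRNA and 24.2 with control siRNA, and by -0.34 with normexp. Slc6a20a, a proline transporter, was well above background with G0s2 siRNA only, at 44.7 against 12.8 with control siRNA, and was at least 1.80-fold higher. It has a closely related neighbour, Slc6a20b, so its separate value is uncertain.

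SLC1 contributed the other gene that was at least 2-fold lower. SLC1 proteins carry glutamate or small neutral amino acids, and 3 of 7 were measured. Slc1a2 encodes the glutamate transporter GLT-1, which in liver is known from the hepatocytes around the central vein. Its signal was 24.2 with G0s2 siRNA and 35.9 with control siRNA, where the lowest signals counted as well above background were 18.1 on the G0s2 siRNA array and 14.3 on the control siRNA array. The difference was -1.37 ± 0.33, or 2.58-fold lower. With normexp it was -0.81 and with spike-in centring 0.03, and its other 2 probes were not well above background on either array. Of the 5 markers of hepatocytes around the central vein, Cyp1a2 differed by -1.77 and Rhbg by -1.52, while Glul differed by -0.33, Oat by -0.25 and Cyp2e1 by 0.23. The summed level of that list was 2.48 on the log2 scale with G0s2 siRNA and 2.82 with control siRNA, none of the 5 was below background, and its part in the value of Slc1a2 was not tested.

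The neutral amino acid exchangers of SLC1 lay near 0. Slc1a4 read 2168 with G0s2 siRNA and 1457 with control siRNA, a difference of -0.22 ± 0.20. Slc1a5, through which many cells take up glutamine, read 95.7 with G0s2 siRNA and 59.5 with control siRNA, and its 2 probes gave -0.11 and -0.03.

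The SLC3 subunits were nearly level while their SLC7 partners varied. Slc3a2, the heavy chain of several plasma membrane exchangers, read 35878 with G0s2 siRNA and 18125 with control siRNA, a difference of 0.19 ± 0.20. Slc3a1, the heavy chain of the cystine and dibasic amino acid exchanger, differed by 0.04. Among light chains that pair with Slc3a2, Slc7a5, which carries large neutral amino acids, read 160 with G0s2 siRNA and 120 with control siRNA, and its 2 probes gave -0.39 and -0.43. Slc7a7, which exports arginine and lysine, differed by -0.07. Slc7a6 was well above background with G0s2 siRNA only, at 21.1 against 11.1 with control siRNA, and gave no fold. Slc7a9, the light chain of Slc3a1, read 123 with G0s2 siRNA and 39.0 with control siRNA, a difference of 0.86 ± 0.24 that was 0.12 with normexp.

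Slc7a1, Slc7a3 and Slc7a4, the detected genes of the cationic amino acid transporter group of SLC7 that the rule kept, were negative, below 2-fold. Slc7a1, the widely expressed arginine and lysine transporter, read 1008 with G0s2 siRNA and 648 with control siRNA, a difference of -0.16 ± 0.20. Slc7a3 differed by -0.45 ± 0.22. Slc7a4, a related protein, differed by -0.52 ± 0.20, with signals of 655 with G0s2 siRNA and 539 with control siRNA. All 3 genes turned positive with spike-in centring, and Slc7a1 was 0.01 with normexp. Slc7a2, also a cationic amino acid transporter, and Slc7a11 were left out by the rule and differed by 2.73 ± 0.25 and 2.56 ± 0.26. Slc7a2 read 366 with G0s2 siRNA and 31.6 with control siRNA, and Slc7a11 read 281 with G0s2 siRNA and 27.4 with control siRNA. The lowest control signal counted as well above background was 14.3. The negative sign therefore does not hold for the whole class. The detected relatives kept here did not show differences of the size of Slc7a2 and Slc7a11. Slc7a6os differed by 0.24, and leaving it out moved the median of all members to -0.09.

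SLC36 and SLC43 were small families without a gene past 2-fold. Slc36a1, a proton-coupled transporter of lysosomes and plasma membranes, differed by -0.03 and its other probe by -0.21. Slc36a4 read 120 with G0s2 siRNA and 52.5 with control siRNA, a difference of 0.39 ± 0.23, and 0.01 with normexp. The other probe of Slc36a4 was not well above background on either array. In SLC43, Slc43a3, now known as a purine nucleobase transporter, read 329 with G0s2 siRNA and 94.8 with control siRNA, a difference of 0.99 ± 0.21, just inside the rule. It was 0.70 with normexp and 1.03 once the dependence on probe position was taken out. Slc43a2, a transporter of large neutral amino acids, read 95.6 with G0s2 siRNA and 101 with control siRNA, a difference of -0.87 ± 0.22. Slc43a1, of the same substrate class, differed by -0.31 ± 0.38.

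**Figure D3:**
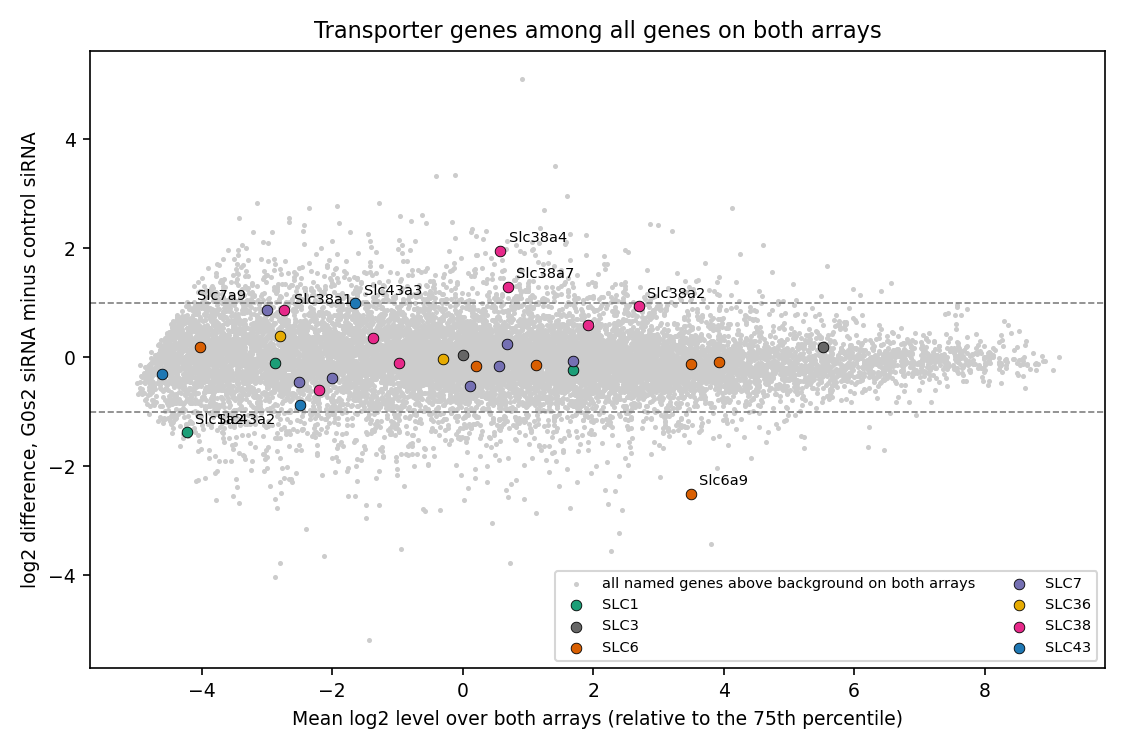
Mean log2 level over both arrays (horizontal axis) against the log2 difference (vertical axis, G0s2 siRNA minus control siRNA) for all named genes above background on both arrays (grey) and the 31 transporter genes among them (coloured by family), with dashed lines at 2-fold. Slc6a9 at -2.50 and Slc1a2 at -1.37 lie below the lower line, and Slc38a4 at 1.96 and Slc38a7 at 1.29 lie above the upper line.

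The 27 genes not above background on either array had signals of at most 19.5, and for them no fold is given. In SLC1 they were Slc1a1, Slc1a3, Slc1a6 and Slc1a7, which encode glutamate transporters. In SLC6 they included the GABA transporter gene Slc6a11, the noradrenaline, dopamine and serotonin transporter genes Slc6a2, Slc6a3 and Slc6a4, and Slc6a7, Slc6a14, Slc6a15, Slc6a17, Slc6a18, Slc6a19 and Slc6a20b. In SLC7 they were Slc7a8, Slc7a10, Slc7a12, Slc7a13, Slc7a14 and Slc7a15. Slc36a2, Slc36a3, Slc38a5, Slc38a8 and Slc38a11 were also among them. A dim probe gives an upper limit on signal and does not show that a gene was off.

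Other genes of amino acid handling were read beside the transporters. Among all 15011 named genes measured, 4.96% crossed the 2-fold line upward and 5.6% downward, and the median was -0.04. The list counts below should be read beside these shares. No set test was run on any list, so a count describes single genes and does not set a pathway apart. In the list of other amino acid transporters and partners, 2 of 11 measured genes were at least 2-fold higher, the left-out Slc7a2 and Slc7a11. Of 17 measured genes of amino acid sensing for mTOR complex signalling, 0 were at least 2-fold higher and 1 was lower, the GTPase gene Rragd at a bound of -1.25, with a list median of 0.22. In the amino acid shortage response, 0 of 20 genes were at least 2-fold higher and 3 were lower, with a median of -0.29. These were the hormone gene Fgf21 at -2.48, the stress gene Nupr1 at -1.88 and Phgdh, the first enzyme of serine synthesis, at -1.28. Genes named next did not pass the rule and were picked for their roles after their values were seen. The transcription factor gene Atf4 differed by -0.08, the asparagine synthetase gene Asns by -0.34 and Trib3 by -0.24. Of 10 glutamine and glutamate enzyme genes 0 passed the rule in either direction. Among them the liver glutaminase gene Gls2 differed by -0.01, and the alanine aminotransferase genes Gpt and Gpt2 by 0.67 and 0.87.

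Markers of cell types also differed between the arrays. The hepatocyte list had 9 of 10 positive genes, where 6964 of all 15011 named genes with a difference were positive. Its median was 0.31 and its summed log2 level 10.69 with G0s2 siRNA and 10.48 with control siRNA. In that list 2 genes were at least 2-fold higher, Cps1 at 2.96 and Hnf4a at 1.04, and 0 were lower. The shares among all named genes were 4.96% and 5.6%. Summed log2 levels of macrophage markers were 3.67 with G0s2 siRNA and 3.80 with control siRNA, with Timd4 not above background. Those of endothelial markers were 2.86 with G0s2 siRNA and 3.26 with control siRNA, with Tek and Emcn not above background. In both lists the median difference was positive, 0.11 for macrophage and 0.83 for endothelial markers, so median and sum differ in sign. Stellate markers summed to 1.30 with G0s2 siRNA and 0.37 with control siRNA, with Des, Lrat, Pdgfrb and Reln not above background, and cholangiocyte markers to 1.08 with G0s2 siRNA and 2.15 with control siRNA, with Cftr and Epcam not above background. For lymphocyte and neutrophil markers, where 2 of 6 were measured, the sums were 0.00 with G0s2 siRNA and 0.98 with control siRNA, and for red blood cell markers, with 2 of 4 measured, -1.49 with G0s2 siRNA and -0.77 with control siRNA. Their part in any transporter difference was not tested.

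**Figure D4:**
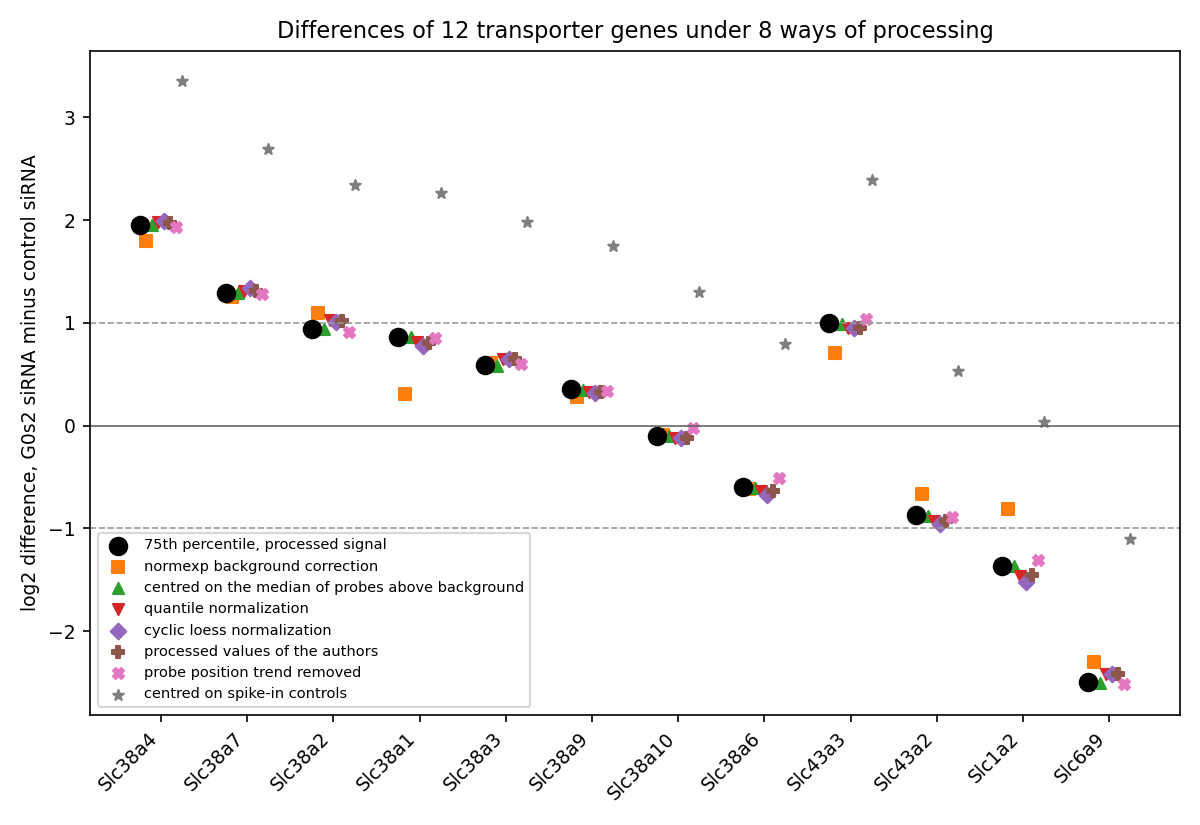
Log2 differences (vertical axis, G0s2 siRNA minus control siRNA) of 12 transporter genes under the main processing (large black points) and 7 others (small symbols), with dashed lines at 2-fold. Most settings fall together for each gene, normexp gives smaller values for Slc38a1, Slc43a3 and Slc1a2, and spike-in centring moves every gene up so that Slc6a9 alone stays negative, at -1.10.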

How the data were processed

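Total RNA of 2 samples was measured on 1-colour arrays labelled with Cy3 from 0.5 ug of RNA, per the labels' protocols. Per the file headers, Agilent Feature Extraction 10.7.1.1 made the deposited spot intensity values, subtracting background and detrending within each array. The authors' series table of intensity values has the same distribution in both columns and served only as an alternative. Both arrays lay on 1 slide, so array position and group cannot be told apart.

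From these files, outlier and control spots were left out, spots of a probe averaged, and log2 values of the deposited signals set relative to the 75th percentile of 39424 probes. Each gene name was represented by its brightest probe among those well above background on at least 1 array. A gene dim on 1 array gives a bound against its own signal there or that array's lowest signal called well above background, whichever is higher. The error is the scanner's signal error, with a median of 0.20 for the members. Between 54.9% and 58.9% of non-control spots were well above background, and the number of arrays limits the precision. By rule, any member above background could be named, with full values for those past 2-fold and the brightest of each family, and from the pathway lists every gene past 2-fold. Members, lists and alternatives were chosen with earlier results of these data known. Gene names matched RefSeq for 60 of 60 members. The code for the calling was tested on simulated data, with planted changes larger than the rule and noise no larger than the scanner error. That simulation held no variation between cultures or labellings, so it checks the code and not the differences reported here. Alternatives were normexp (limma 3.58.1 in R 4.3.3, offset 50), other centrings and normalizations, other filters and probe choices, and rules of 1.5-fold and 3-fold. Python 3.11.15 with pandas 2.3.3, numpy 2.4.6, scipy 1.17.1 and statsmodels 0.14.6 was used. Results for a few genes are not reported here.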

Additional observations from a re-analysis of the deposited data

How the results depend on the processing

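No paired analysis was possible because each group has 1 array, and no array could be left out. The count of members at least 2-fold higher, 2 in the main values, was 4 of 60 without a filter on dim probes (6.46% of all named genes passed), 27 of 33 with spike-in centring (78.2% of all), 8 of 32 at a 1.5-fold rule (12.8%) and 1 of 32 at a 3-fold rule (1.17%). With Slc38a2 added it was 3 of 31 with normexp (2.61% of all). It was also 3 of 32 with quantile normalization (4.87%), cyclic loess normalization (4.78%) and the authors' values (4.83%). The count at least 2-fold lower, also 2, was 1 with normexp, where Slc1a2 left it (3.58% of all), 1 with spike-in centring (0.308%), 4 at 1.5-fold (15.0%) and 1 at 3-fold (1.57%). The median over members moved to 1.31 with spike-in centring, when the median over all named genes was 1.35, so relative to all genes it moved little. Slc1a2 reversed to 0.032 under that centring. The log2 signals of the 8 spike-in probes differed by -0.97 to -0.02 (G0s2 siRNA minus control siRNA), and the spike-in amounts are not given in the sources used here. Of 14 positive members 13 were positive in all settings that gave a value, the exception being Slc6a16. Spike-in centring could not turn a positive member negative. Of 18 negative members 17 turned positive with spike-in centring, which moves all genes alike, and apart from that centring 15 stayed negative, the exceptions being Slc6a13, Slc7a1 and Slc7a7. Removal of a lowess trend with probe position (span 0.3) and leaving out Slc7a6os were chosen after seeing the data. They left the counts at 3 higher and 2 lower, and at 2 and 2. Signals near background limit Slc1a2, Slc43a1, Slc6a16 and Slc6a20a most, and the saturation flag was set for 0 spots.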

Other observations

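Probe position in the transcript and the difference had a Spearman rho of -0.09 over the 31 members on both arrays and 0.15 over 14143 named genes, across genes that share both arrays. The median position was 2860 bases for the 8 SLC38 members and 2233 for the other 23.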
